A study of Mus musculus with 35 samples.

Results

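The genes described are the subunits and assembly factors of respiratory complex I. They were taken by name alone: every gene symbol in the count tables that begins with Nduf, 45 of 24421 symbols, whatever its expression. Of these, 36 encode subunits (3 core subunits of the N module, 4 of the Q module, 9 accessory subunits of the matrix arm, 19 of the membrane arm, and the acyl carrier protein Ndufab1), 7 encode Ndufaf assembly factors, and Ndufa4 and Ndufa4l2 carry the prefix although Ndufa4 is now counted as a subunit of complex IV.

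Complex I, NADH:ubiquinone oxidoreductase, is the main entry point of electrons into the mitochondrial respiratory chain. The N module of its matrix arm oxidizes NADH, the Q module passes the electrons through iron-sulfur clusters to ubiquinone, and the membrane arm pumps protons across the inner membrane. Core subunits carry out the chemistry, accessory subunits surround and stabilize them, and assembly factors join intermediates together without staying in the finished enzyme. The core subunits of the membrane arm are encoded by mitochondrial DNA and were not analysed here.

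All 35 RNA-seq libraries came from immortalized Nelfb flox/- mouse embryonic fibroblasts (MEFs), which hold a null and a floxed allele of Nelfb, the gene of the B subunit of negative elongation factor. In the 20 population libraries, cells with a pLenti empty vector (EV), wild-type NELFB (WT), MT194, MT486 or the double mutant DMT, which joins MT194 and MT486, were taken 7 days after Ad-Cre-GFP (written Ad-Cre or Cre here) or Ad-GFP, with 2 replicates per group. The other 15 libraries were 3 single-cell-derived clones each after Ad-Cre: WT, MT194 and MT486 in pLenti, and WT(N48) and Δ-C60 in pBabe. The study reports that MT194 is deficient in binding NELFA and NELFC and MT486 in binding NELFE. The population replicates are a pair of independent experiments on 1 cell line. Reads on genes numbered 17969149 to 29080007 per population library and 18413284 to 27816723 per clone library, and the clones carry no labelled time point.

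The labels were checked on Nelfb and on marker genes before the results. Nelfb stood at 7.97 and 5.46 CPM (gene counts scaled to library size, after TMM normalization) in the EV-Cre libraries and at 46.1 and 39.5 CPM in EV-GFP, and at 60.5 to 208 CPM in every other Ad-Cre population. In the clones it stood at 56.3 to 247 CPM except in the libraries labelled WT replicates 1 and 3, which had 10.3 and 15.5 CPM against 109 in WT replicate 2. Changes of named members against the libraries labelled WT clones are therefore also given with WT replicate 2 as the one WT library. MT486 clones 1 and 2 differed far less from each other than any other pair of replicates (chi-square per degree of freedom 5.06, next lowest 32.4) but more than sampling noise. Of 9 fibroblast markers, 8 were at 1 CPM or more in all 35 libraries, and Thy1 was at 0 to 0.16 CPM. Summed markers of other cell types reached at most 2.02 CPM for epithelium (Cdh1 the highest), 0.936 for endothelium (Pecam1), 5.98 for immune cells (Cd68), 0.144 for adipocytes (Adipoq), 13.1 for muscle (Myod1) and 67.8 for neural cells (Tubb3, with Sox2 up to 43.7), against at least 7440 for fibroblasts. Epcam was at most 0.0979 and Ptprc at most 0.12 CPM.

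Promoters of members with low adjusted p-values, 250 bases before to 50 after the RefSeq start on GRCm38.p6, are shown first so that their sequences stand beside the values. They were searched on both strands for GCGCATGCG (a nuclear respiratory factor 1, NRF1, motif), CCGGAAG (an ETS motif bound by GABP) and AAGATGGCG (a YY1 motif), and capitals mark a match. Ndufb11 and Ndufa13 had the lowest adjusted p-values in the deletion without rescue among members with an entry. Ndufb9 belongs to the same set. Ndufaf4, the only member that rose there, was added after its values were seen.
Ndufb11, chrX:20617570-20617869, minus strand: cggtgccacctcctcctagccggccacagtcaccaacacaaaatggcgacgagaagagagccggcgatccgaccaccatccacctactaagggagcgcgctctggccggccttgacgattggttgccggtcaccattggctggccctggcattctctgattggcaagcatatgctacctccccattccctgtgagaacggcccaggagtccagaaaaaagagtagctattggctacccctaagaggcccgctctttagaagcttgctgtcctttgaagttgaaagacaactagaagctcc
Ndufa13, chr8:69901971-69902270, minus strand: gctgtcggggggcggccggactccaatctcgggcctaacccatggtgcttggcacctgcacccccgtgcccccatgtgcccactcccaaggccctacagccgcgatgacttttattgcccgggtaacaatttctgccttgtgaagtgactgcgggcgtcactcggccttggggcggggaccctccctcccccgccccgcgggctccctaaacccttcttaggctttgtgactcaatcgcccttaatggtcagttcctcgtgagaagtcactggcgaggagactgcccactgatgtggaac
Ndufaf4, chr4:24897833-24898132, plus strand: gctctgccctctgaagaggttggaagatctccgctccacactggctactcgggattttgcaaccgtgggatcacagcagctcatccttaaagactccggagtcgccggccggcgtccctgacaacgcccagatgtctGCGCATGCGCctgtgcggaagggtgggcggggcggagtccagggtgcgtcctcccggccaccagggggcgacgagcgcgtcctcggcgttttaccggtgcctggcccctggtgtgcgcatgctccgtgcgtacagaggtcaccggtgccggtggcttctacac
The Ndufb11 and Ndufa13 windows held none of these letters, and the Ndufaf4 window held the NRF1 motif on both strands in overlap, starting at positions 138 and 139. In GENCODE M21, Ndufa13 starts upstream of the RefSeq start used here, so that its window lies inside the annotated gene. A promoter was found for 39 of 45 members. The NRF1 letters stood in 4 of 39 (10.3%, Ndufa8, Ndufa11, Ndufaf4 and Ndufaf5) against 1.81% of all 27025 promoters, and the YY1 letters in 5 of 39 (12.8%, Ndufa9, Ndufc1, Ndufs4, Ndufs6 and Ndufs7) against 1.49%. The ETS letters stood in 5 of 39 (12.8%) against 9.12%. Of the 5 members called below after deletion without rescue that have an entry, Ndufaf4 alone held the exact letters of any of the 3 motifs. Variants of these letters were not looked for.

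How strongly the members are expressed was compared per kilobase of merged exon in EV-GFP, the cells that kept the floxed allele. The median levels of the core and accessory subunits were above that of the assembly factors, with overlap between single genes, and that of Ndufab1 was below it. These differences were not tested. The highest levels were those of Ndufa2, an accessory subunit of the N module, at 124 ± 15 CPM per kb (SD, n = 2), and Ndufa1 and Ndufb9, accessory subunits of the membrane arm, at 120 ± 4.33 and 101 ± 11.6. Medians by role were 24.4 for the core N module (range 10.6 to 29), 25.6 for the core Q module, 27.1 for matrix and 30.5 for membrane accessory subunits, and 5.01 for the 7 Ndufaf genes (2.54 to 14.2). Ndufa4 stood at 94.2 CPM per kb. With the longest transcript in place of merged exons, the median over the 43 tested members was 31.2 in place of 22.8 CPM per kb, and Ndufb9 was the highest.

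**Figure D1:**
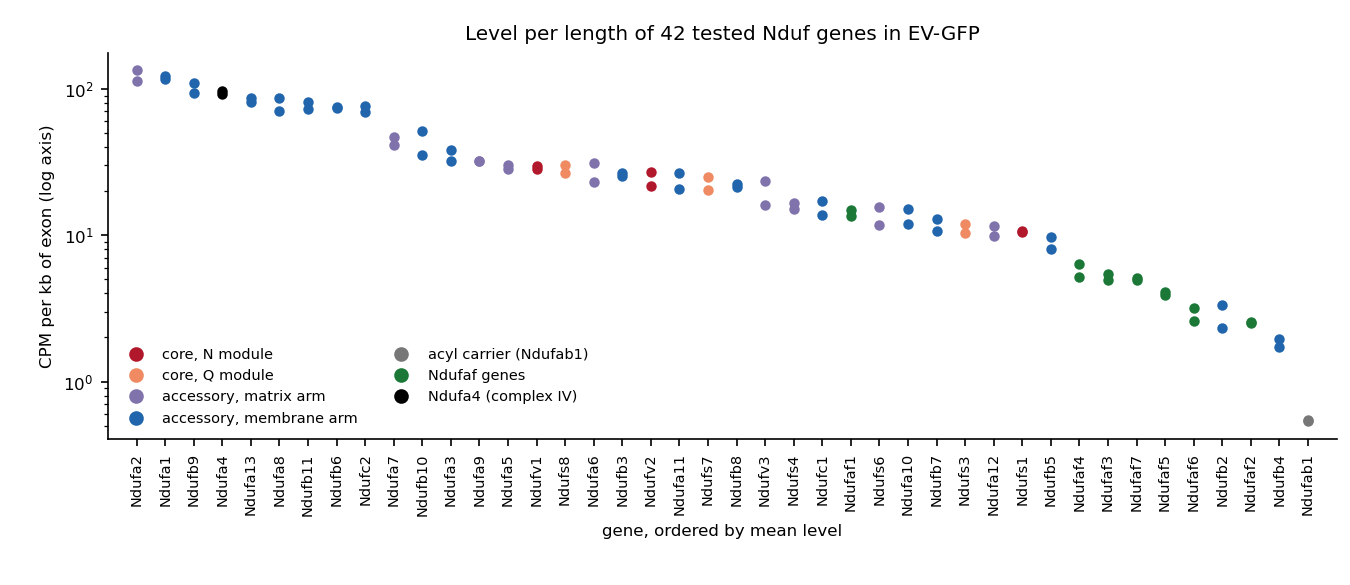
Level of 42 tested Nduf genes in the 2 EV-GFP libraries, as CPM per kb of merged exon on a log axis, 1 point per library, ordered by mean and coloured by role. The Ndufaf genes lie at 2.54 to 14.2 CPM per kb, and Ndufab1 is the lowest at 0.541.

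The lowest members carry limits of counting. Ndufab1, the mitochondrial acyl carrier protein, and Ndufb4 stood at 0.541 and 1.84 CPM per kb. The authors required a mapping quality of 30 or more, a step that drops reads fitting near-identical copies of a gene equally well, and its part in these levels was not tested. Ndufs5, a subunit of the membrane arm, had 0 counts in 34 of 35 libraries and 2 in the other. Ndufa4l2, the paralogue of Ndufa4 known as a target of hypoxia signalling, had 0 to 6 counts (at most 0.229 CPM) and 0 in 12 libraries. A count of 0 allows up to 3 counts, at most 0.171 CPM per library, for counting error only. Ndufs5 and Ndufa4l2 did not pass the filter on low counts and were not tested, and the other 43 members were tested in populations and in clones.

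The first comparison asks what 7 days of Cre did in cells without ectopic NELFB. In EV cells, transcripts of complex I subunits were lower after Ad-Cre than after Ad-GFP, and Ndufaf4 was higher. At an adjusted p under 0.05 (edgeR's quasi-likelihood test, Benjamini-Hochberg over 13805 genes), 8 of 43 members fell and 1 rose, which is 20.9% of members against 13% of all genes tested (6.55% fell and 6.43% rose). At an unadjusted p under 0.05 there were 13 members lower and 1 higher, beside 26.5% of all genes. The log2 fold change was negative for 37 of 43 members, with a median of −0.23, while over all genes the median was 0.00 and 49.9% were negative. The 36 subunit genes summed to 1458 and 1267 CPM in EV-Cre and to 1859 and 1685 CPM in EV-GFP, so that both Cre libraries were below both GFP libraries. In bulk RNA, fewer cells with a transcript and less transcript per cell cannot be told apart.

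The replicate numbers were taken to mark the experiments, so the Cre effect was also read within each. Of 35 tested subunits, 31 were lower after Cre in both experiments and 0 were higher in both, against 40.4% of all genes that were lower in both, with medians of −0.28 and −0.27. With the replicate as a block, 22 members fell and 2 rose (Ndufaf4 and Ndufaf2), beside 43% of all genes called (21.8% lower and 21.2% higher). Without 1 library the count of 9 became 7 (without EV-Cre replicate 1), 3 (EV-Cre replicate 2), 4 (EV-GFP replicate 1) or 4 (EV-GFP replicate 2), beside 7.56%, 5.24%, 6.8% and 5.89% of all genes in the same fits. The 4 libraries fitted alone gave 0, beside 1.8%. Without EV-Cre replicate 1 the median was −0.37. Reads on no gene made up 15.45% and 18.79% in EV-Cre and 13.86% and 17.74% in EV-GFP, and the part of this difference was not tested.

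**Figure D2:**
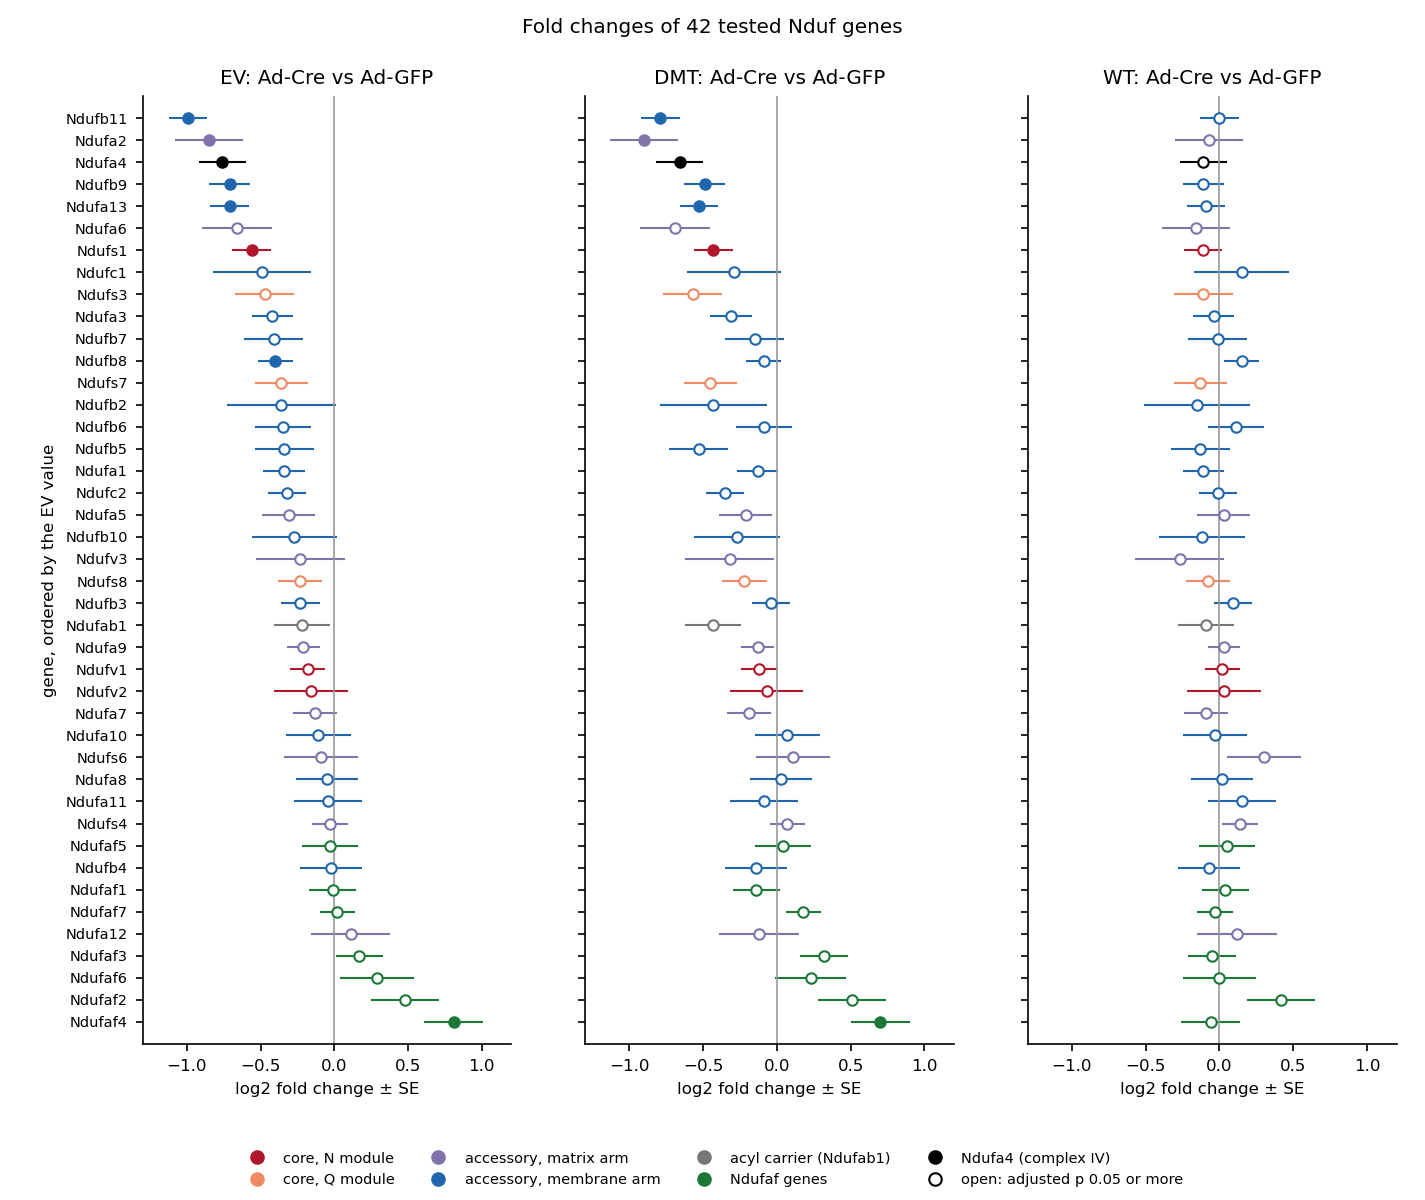
Log2 fold change with its standard error for 42 tested Nduf genes, Ad-Cre versus Ad-GFP, in EV, DMT and WT populations (n = 2 libraries per group), ordered by the EV value. Filled points passed an adjusted p under 0.05, 8 in EV, 7 in DMT and 0 in WT, and colours give the role.

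The core subunit Ndufs1 fell. Ndufs1, the large iron-sulfur subunit of the N module, had 60.8 and 55.4 CPM in EV-Cre and 85 and 86 CPM in EV-GFP. Its log2 fold change was −0.56 (SE 0.13, adjusted p = 0.0136), and its adjusted p was 0.119, 0.0612 and 0.0752 without EV-Cre replicate 2, EV-GFP replicate 1 and EV-GFP replicate 2. Its groups did not overlap, which was so for 24 members lower and 4 higher of 43 and for 48.4% of all genes.

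Ndufs3, Ndufs7, Ndufs8, Ndufv1 and Ndufv2 did not pass the test without the block. Ndufs3 had 21.5 and 13.5 CPM in EV-Cre and 26.2 and 22.3 in EV-GFP (log2 fold change −0.47, adjusted p = 0.15). Ndufs7, which carries the last iron-sulfur cluster before ubiquinone, had 32.1 and 29.1 against 43.1 and 35.3 CPM (−0.36, adjusted p = 0.225). With the block both were called, at adjusted p-values of 0.00646 and 0.0035. Ndufs8, another iron-sulfur subunit, had 32.8 and 29.5 against 38.9 and 34.2 CPM (−0.23, adjusted p = 0.344). Ndufv1, which binds NADH and FMN, had 68.4 and 66.6 against 78.3 and 74.7 CPM (−0.18, adjusted p = 0.363), and its partner Ndufv2 had 55.1 and 38.8 against 58.3 and 46.3 CPM (−0.16, adjusted p = 0.756). The groups of Ndufv2 overlapped, and the SE of its log2 fold change was 0.25.

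Among the subunits, the largest changes called were in accessory subunits. Ndufb11, a membrane arm subunit on the X chromosome (20615326 to 20617619 of GRCm38), had 36.9 and 33.6 CPM in EV-Cre and 73.5 and 66.5 CPM in EV-GFP. Its level was 0.504 times that of the GFP cells (log2 fold change −0.99, SE 0.13, adjusted p = 0.000373), by −0.98 in the first experiment and −0.97 in the second. Ndufa13, a membrane arm subunit also known as GRIM-19, had 61.2 and 67.2 against 101 and 109 CPM (−0.71, SE 0.13, adjusted p = 0.00312). These 2 members kept their calls without each of the 4 libraries.

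Ndufb9, also of the membrane arm, had 58.7 and 69.3 CPM in EV-Cre and 95.9 and 113 in EV-GFP (log2 fold change −0.71, SE 0.14, adjusted p = 0.00521). Its adjusted p was 0.0544 without EV-Cre replicate 1 and 0.0568 without EV-GFP replicate 2. Ndufb8, in the distal membrane arm, had 47.9 and 55.2 against 66.7 and 69.8 CPM, the smallest change called (−0.40, SE 0.12, adjusted p = 0.0378). Its call did not hold without any of the 4 libraries in turn (adjusted p 0.0643 to 0.222), nor without the filter on low counts (0.12). Ndufa2 had 45.5 and 33 CPM in EV-Cre and 76.9 and 64.8 in EV-GFP (−0.85, SE 0.23, adjusted p = 0.0274). Its adjusted p was 0.221, 0.152 and 0.0626 without EV-Cre replicate 2, EV-GFP replicate 1 and EV-GFP replicate 2. These genes and the preceding pair, all taken because they were called, are among the 24 members with both Cre libraries below both GFP libraries.

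Ndufa4, the prefix-bearing gene now placed in complex IV, moved with the subunits. It had 86.5 and 67.3 CPM in EV-Cre and 134 and 126 in EV-GFP (log2 fold change −0.76, SE 0.16, adjusted p = 0.00909). The call was lost without EV-Cre replicate 2 (adjusted p = 0.108) and without EV-GFP replicate 1 (0.0565). The remaining tested subunits lay between −0.66 for Ndufa6, a matrix arm subunit that binds the acyl carrier protein (adjusted p = 0.0862, and 6.06e-05 with the block), and 0.11 for Ndufa12.

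**Figure D3:**
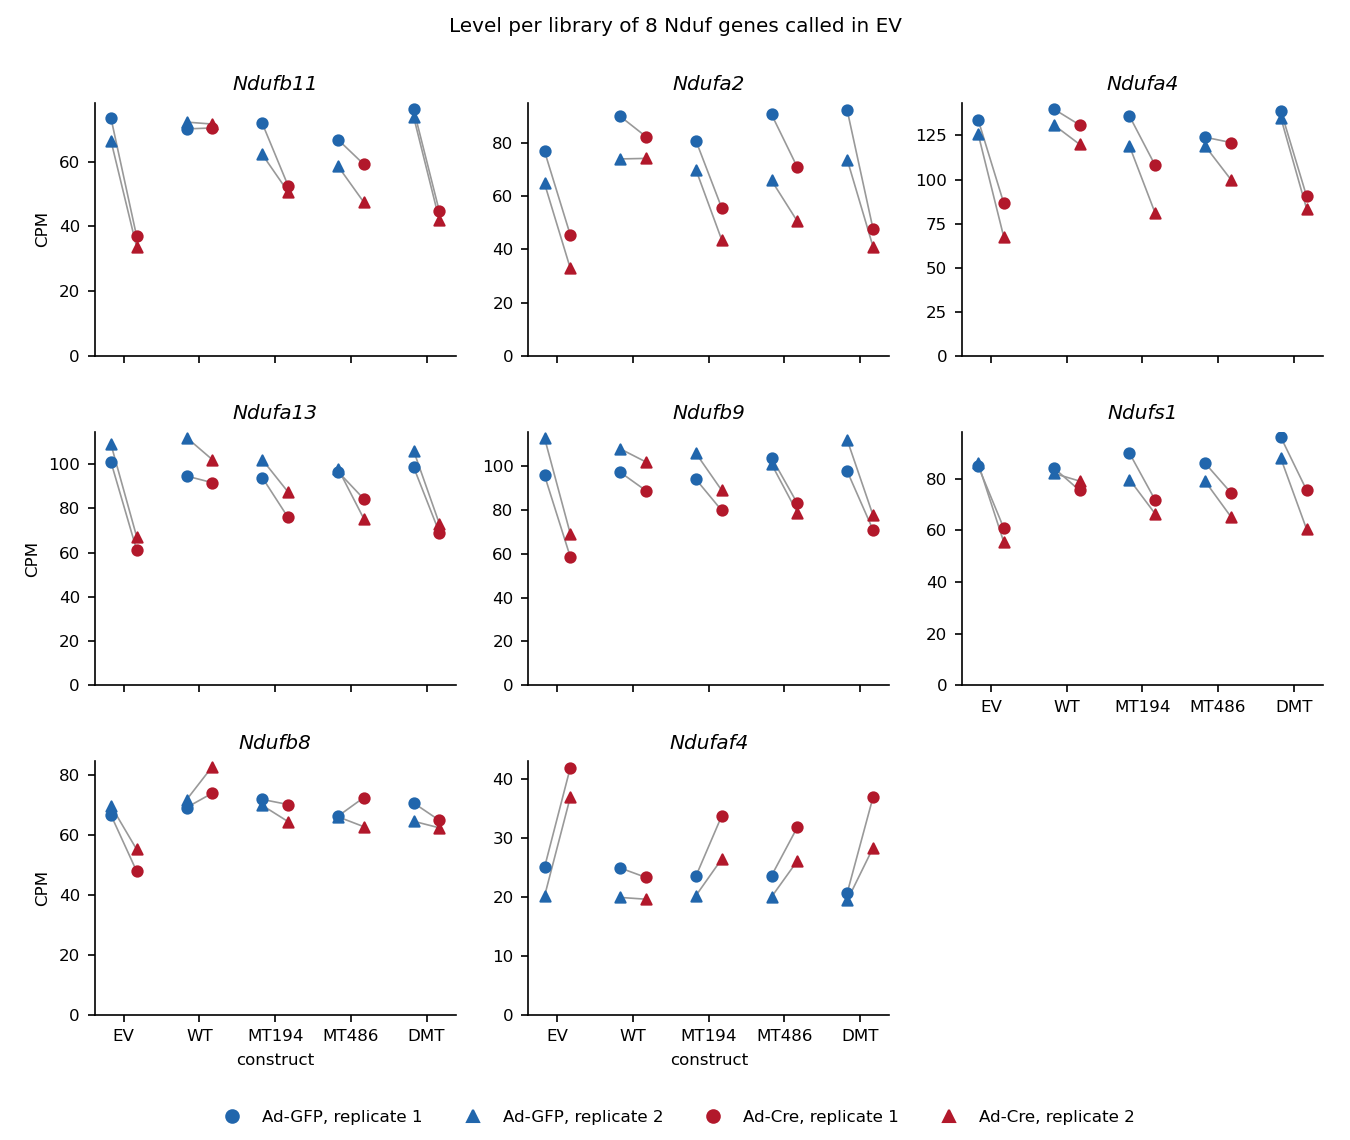
CPM in each of the 20 population libraries for 8 Nduf genes called in EV, by construct, with Ad-GFP in blue, Ad-Cre in red and lines that join libraries with the same replicate number. In EV and DMT the 7 genes other than Ndufaf4 are lower after Cre in each replicate, with differences of −0.12 and −0.05 (log2) for Ndufb8 in DMT, Ndufaf4 is higher, and in WT the points lie close together.

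Among the assembly factors, Ndufaf4 rose. Of 7 Ndufaf genes, 1 passed the test as higher, 0 as lower, and 5 were higher after Cre in both experiments (40.6% of all genes) while 0 were lower in both. Together they summed to 118 and 104 CPM in EV-Cre and 92.8 and 85.3 CPM in EV-GFP, and Ndufaf4 alone made up most of that difference. Ndufaf4, which acts with Ndufaf3 in early assembly of the matrix arm, had 41.9 and 36.9 CPM in EV-Cre against 25 and 20.1 in EV-GFP, and the groups did not overlap. Its log2 fold change was 0.81 (SE 0.20, adjusted p = 0.0168), by 0.73 and 0.86 in the 2 experiments. The adjusted p was 0.0969, 0.0516 and 0.146 without EV-Cre replicate 1, EV-Cre replicate 2 and EV-GFP replicate 2. Ndufaf2, a late-acting factor, had 12.1 and 8.99 against 7.62 and 7.51 CPM (0.48, adjusted p = 0.208, and 0.0188 with the block). Ndufaf6, required for early assembly, had 4.28 and 4.47 against 3.93 and 3.22 CPM (0.29, adjusted p = 0.522).

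**Figure D4:**
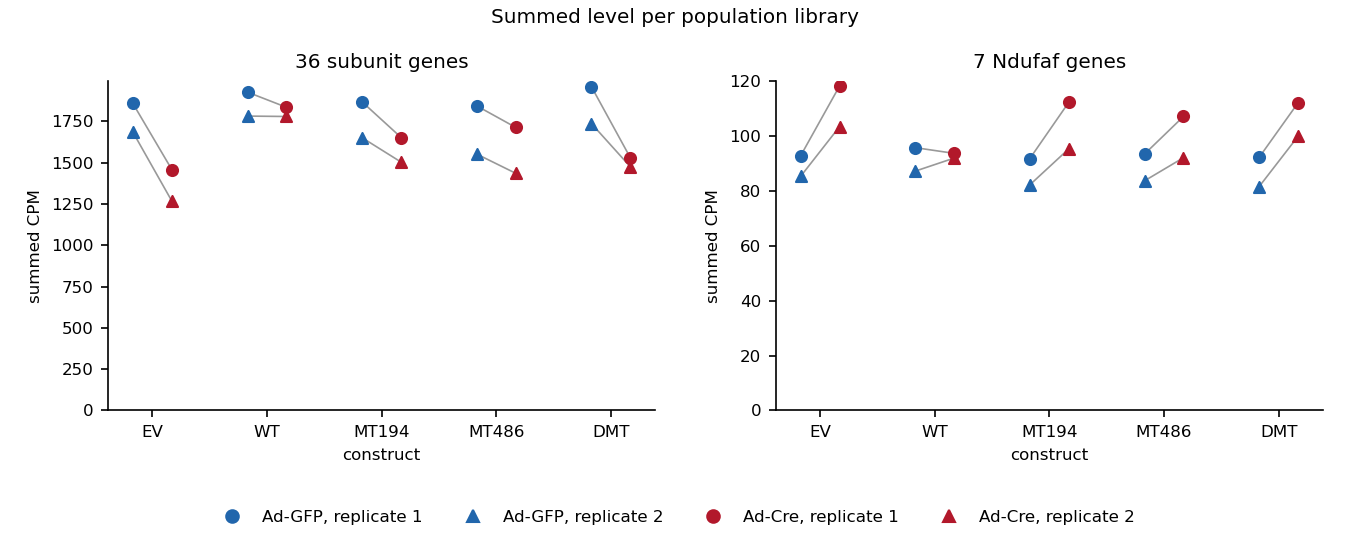
Summed CPM of the 36 subunit genes and of the 7 Ndufaf genes in each population library, by construct, with Ad-GFP in blue and Ad-Cre in red and lines joining the same replicate number. In EV-Cre the subunit sums are 1267 and 1458 CPM and the Ndufaf sums 104 and 118 CPM. MT486-Cre replicate 2, with a subunit sum of 1436 CPM, lies between the EV-Cre libraries.

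Wild-type NELFB was used to ask whether the Cre effect is seen when the protein is supplied. In WT cells, 0 of 43 members were called after Cre, beside 0.0217% of all genes (3 of 13805), and 0 members had an unadjusted p under 0.05 (6.22% of all genes). DESeq2 called 0 members, beside 0.587% of all genes, and the fit with the block 0, beside 5.61%. Ndufb11 had 70.4 and 71.6 CPM in WT-Cre and 70.1 and 72.2 in WT-GFP (log2 fold change −0.00, SE 0.13). Ndufaf4 had 23.3 and 19.6 against 24.9 and 19.9 CPM (−0.06, SE 0.20). Subunits were lower in both experiments for 16 of 35, against 37.8% of all genes, with medians of −0.05 and 0.00. The 36 subunits summed to 1835 and 1780 CPM in WT-Cre and to 1927 and 1782 in WT-GFP.

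The difference between the Cre effects was tested as an interaction of vector and virus. Ndufb11 was the only member called for WT against EV, at a log2 difference of 0.98 (SE 0.18, adjusted p = 0.0299), beside 0.681% of all genes (94 of 13805). Without 1 library its adjusted p lay between 0.0757 and 0.174 over all 8 libraries, and it was 0.0843 without the filter on low counts. The fits without 1 library hold fewer libraries and no replicate block, so a lost call there does not measure a smaller difference. With the block 11 members were less reduced in WT and Ndufaf4 was less raised, beside 17.3% of all genes, and Ndufb11 had an adjusted p of 5.81e-05. In the fit without it, the differences were 0.79 for Ndufa2 (adjusted p = 0.343), 0.64 for Ndufa4 (0.267) and −0.87 for Ndufaf4 (0.202).

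Between the Cre populations themselves, subunits stood higher with WT than with the empty vector. In WT-Cre versus EV-Cre, which shares the EV-Cre libraries with the comparison above, 7 members were higher and 1 lower, beside 8% of all genes called (4.15% higher and 3.85% lower). The log2 fold changes were 1.01 for Ndufb11 (SE 0.13, adjusted p = 0.000925), 1.00 for Ndufa2 (SE 0.23, adjusted p = 0.0202) and −0.87 for Ndufaf4 (SE 0.20, adjusted p = 0.0173). Ndufa4, Ndufb8, Ndufa13 and Ndufb9 were also called, at 0.57 to 0.71. At an unadjusted p under 0.05 there were 18 members higher and 1 lower, beside 23.7% of all genes. The log2 fold change was positive for 40 of 43 members, with a median of 0.32 against −0.02 over all genes.

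All 35 tested subunits stood higher in WT-Cre by this fit, and with the block 25 members were higher and Ndufaf4 lower, beside 40.1% of all genes (20.3% higher). DESeq2 gave 12 higher and 1 lower, beside 13.8% of all genes. Without 1 library the count of 8 became 4 (EV-Cre replicate 1), 2 (EV-Cre replicate 2), 2 (WT-Cre replicate 1) or 1 (WT-Cre replicate 2), beside 4.76%, 1.6%, 1.59% and 1.23% of all genes, and Ndufb11 was called in each of these fits. Ndufaf4 was called in none of them (adjusted p 0.0713 to 0.165), and Ndufa2 was called without EV-Cre replicate 1 alone (0.0845 to 0.211 in the others). With the 4 libraries alone 1 member was called, beside 2.8% of all genes.

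DMT carries both mutations, and subunits were called lower after Cre in these cells too. In DMT-Cre versus DMT-GFP, 7 members fell (Ndufb11, Ndufa2, Ndufa4, Ndufa13, Ndufb9 and Ndufs1 among them) and Ndufaf4 rose, beside 10.8% of all genes called (5.92% fell and 4.9% rose). At an unadjusted p under 0.05 there were 14 members lower and 2 higher, beside 24.9% of all genes. Ndufb11 had 44.6 and 41.9 CPM after Cre against 76.1 and 73.8 after GFP (log2 fold change −0.79, SE 0.13, adjusted p = 0.00189). Ndufa2 had 47.8 and 41.1 against 92.2 and 73.7 CPM (−0.90, SE 0.23, adjusted p = 0.0242). Ndufaf4 had 36.9 and 28.3 against 20.7 and 19.4 CPM (0.70, SE 0.20, adjusted p = 0.0369). The groups of these genes did not overlap, as for 20 members lower and 4 higher of 43 and 48.2% of all genes.

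Ndufa4 fell by 0.66 on the log2 scale in DMT (adjusted p = 0.0221), Ndufa13 by 0.53 (0.0186), Ndufb9 by 0.49 (0.038) and Ndufs1 by 0.43 (0.0495). Subunits were lower in both experiments for 27 of 35, against 38.1% of all genes, and 5 of 7 Ndufaf genes were higher in both, against 38.4% of all genes. With the block 16 members fell and 2 rose, beside 40.7% of all genes (20.8% lower). Without 1 library the count of 8 became 2 (DMT-Cre replicate 1), 3 (DMT-Cre replicate 2), 1 (DMT-GFP replicate 1) or 1 (DMT-GFP replicate 2), beside 4.96%, 4.75%, 5.64% and 3.69% of all genes. Ndufb11 was called in each of these 4 fits, Ndufs1 without DMT-Cre replicate 1, Ndufaf4 without DMT-Cre replicate 2, and Ndufa2, Ndufa4, Ndufa13 and Ndufb9 in none. Without the filter on low counts 2 members were called, beside 5.7% of all genes. The 4 libraries alone gave 0, beside 3.63%.

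In the single mutants 0 members were called. The members called in EV had smaller changes in value here, but edgeR's interaction tests without the block, given below, called 0 of these differences. Ndufs7, which was not called in EV without the block, changed more in MT194. Its within-experiment differences were −0.51 and −0.45 in MT194 and −0.42 and −0.27 in EV. In MT194-Cre versus MT194-GFP 4.49% of all genes were called. An unadjusted p under 0.05 was found for 7 members (5 lower and 2 higher), beside 16.4% of all genes. DESeq2 called 0 members, beside 8.17% of all genes. Ndufb11 had 52.6 and 50.7 CPM in MT194-Cre and 71.8 and 62.2 in MT194-GFP (log2 fold change −0.38, SE 0.13, adjusted p = 0.135). Ndufaf4 had 33.7 and 26.4 against 23.5 and 20.2 CPM (0.46, SE 0.20, adjusted p = 0.254). The Cre and GFP libraries of both genes did not overlap, as for 34.7% of all genes. With the block 9 members fell and 2 rose (Ndufaf4 and Ndufaf2), beside 26.7% of all genes, led by Ndufa2 at −0.61 (adjusted p = 7.87e-05) and Ndufs7 at −0.49 (0.00048). Subunits were lower in both experiments for 23 of 35, against 34.2% of all genes.

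In MT486-Cre versus MT486-GFP 2.54% of all genes were called. An unadjusted p under 0.05 was found for 2 members, both lower, beside 14.5% of all genes. DESeq2 called 0 members, beside 6.39% of all genes. Ndufb11 had 59.2 and 47.5 CPM in MT486-Cre and 66.8 and 58.6 in MT486-GFP (log2 fold change −0.23, SE 0.13, adjusted p = 0.467), and these groups overlapped. Ndufaf4 had 31.8 and 26.1 against 23.6 and 20 CPM (0.41, SE 0.20, adjusted p = 0.365). With the block 5 members fell and Ndufaf4 rose (adjusted p = 0.00353), beside 23.2% of all genes. Subunits were lower in both experiments for 18 of 35, against 36.8% of all genes.

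Each mutant was also set against the empty vector, with the EV libraries shared by these comparisons. The interaction tests called 0 members for MT194, MT486 and DMT against EV, beside 0.00724% of all genes (1 gene) each, and 3, 4 and 0 members had an unadjusted p under 0.05, beside 3.22%, 5.18% and 1.15% of all genes. DESeq2 called 0, 1 and 0 members, beside 0.152%, 0.34% and 0.00724% of all genes. With the block Ndufb11 was less reduced in MT194 by 0.62 (adjusted p = 0.0228), beside 0.992% of all genes. In MT486 4 members passed with the block, beside 2.96% of all genes, namely Ndufb11 (0.75, adjusted p = 0.0045), Ndufa4, Ndufa2 and Ndufb7. For DMT the difference in the Cre effect on Ndufb11 was 0.20 (SE 0.18) without the block, which did not tell it apart from EV.

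Against EV-Cre, 0 members were called in MT194-Cre, MT486-Cre or DMT-Cre, beside 0.225%, 0.362% and 0.00724% of all genes, with 9, 10 and 5 members at an unadjusted p under 0.05 (9.61%, 12.1% and 3.24% of all genes). DESeq2 called 2, 3 and 0 members, beside 2.19%, 3.74% and 0.058% of all genes. Ndufb11 stood higher than in EV-Cre by 0.55 in MT194-Cre (SE 0.13, adjusted p = 0.122), 0.60 in MT486-Cre (SE 0.13, adjusted p = 0.0638) and 0.29 in DMT-Cre (SE 0.13, adjusted p = 1). With the block 15 members were called in MT194-Cre and 11 in MT486-Cre, beside 13.1% and 17.9% of all genes. Means of Ndufb11 over the 2 Cre libraries ran from 35.3 ± 2.32 CPM in EV through 43.2 ± 1.92 in DMT, 51.6 ± 1.36 in MT194 and 53.3 ± 8.26 in MT486 to 71 ± 0.856 in WT (SD, n = 2). MT194 and MT486 did not differ beyond their spread.

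Without Cre no member was called between constructs. In WT-GFP, MT194-GFP, MT486-GFP and DMT-GFP versus EV-GFP, which share the EV-GFP libraries, edgeR called 0 of 43 members, beside 0%, 0%, 0.00724% and 0% of all genes. In each of the 4 comparisons 0 members had an unadjusted p under 0.05, beside 0.608%, 2%, 1.83% and 1.27% of all genes. DESeq2 called 0 members in each, beside 0.00724%, 0.0362%, 0.0724% and 0.0217% of all genes. Ndufb11 lay between 58.6 and 76.1 CPM over the 10 Ad-GFP libraries.

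Genes of the other respiratory complexes were read beside complex I in EV-Cre versus EV-GFP, from lists of gene names, and their counts stand beside 6.55% of all genes that fell and 6.43% that rose. In complex II, 1 of 8 genes fell, Sdha, the flavoprotein of succinate dehydrogenase (201 and 208 against 269 and 291 CPM, log2 fold change −0.46, adjusted p = 0.0342). In complex III, 4 of 14 fell and 0 rose, among them Uqcrc1, a core protein (80.7 and 94 against 130 and 131 CPM, −0.58, adjusted p = 0.00755), and the hinge protein Uqcrh (46.4 and 51.8 against 86.7 and 106 CPM, −0.97, adjusted p = 0.0131). Uqcc3, an assembly factor of complex III, had 12 and 9.75 against 21.4 and 16.4 CPM (−0.80, adjusted p = 0.0222). In complex IV, 6 of 22 tested fell and 1 rose. Cox5b, a structural subunit, fell by 0.67 (15.8 and 18.6 against 26.5 and 28.3 CPM, adjusted p = 0.00485). Cox7a2, another structural subunit, had 50.3 and 50.1 against 72.3 and 71.8 CPM (−0.52, adjusted p = 0.0133). Cox18, a factor that inserts a core subunit into the membrane, was the one that rose, with 21.8 and 18.6 against 12.9 and 10.6 CPM (0.78, adjusted p = 0.0194). In complex V, 0 of 18 passed in either direction, with a median of −0.36 and 16 of 18 negative. Medians were −0.24, −0.32 and −0.35 for complexes II, III and IV and −0.32 for the 35 tested complex I subunits, against 0.00 over all genes.

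Of 10 tested complex I assembly factors without the prefix, 0 passed, with 7 positive and a median of 0.20. Among 14 regulators of respiratory genes 1 rose and 2 fell. Ppargc1b, a coactivator of mitochondrial gene expression, had 5.59 and 5.23 CPM in EV-Cre and 14.7 and 14.6 in EV-GFP (log2 fold change −1.44, adjusted p = 5.5e-05). Its relative Ppargc1a had 29.1 and 22.3 against 58.7 and 48.2 CPM (−1.05, adjusted p = 0.0306). Myc, a growth-related transcription factor, had 228 and 204 against 72.1 and 57.1 CPM (1.74, adjusted p = 3.27e-05). In WT the CPM of Ppargc1b was 9.15 and 9.68 in Cre and 13.8 and 15.7 in GFP, and that of Myc 88.4 and 81 against 65.5 and 56.6, with no gene of these lists called in WT-Cre versus WT-GFP.

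In DMT, 0 of 8 genes of complex II, 1 of 14 of complex III, 0 of 22 of complex IV and 1 of 18 of complex V fell, beside 5.92% of all genes. In the same cells 1 gene of complex IV and 1 of the 10 assembly factors without the prefix rose, beside 4.9% of all genes. In WT-Cre versus EV-Cre 3 of 14 genes of complex III and 5 of 22 of complex IV were higher, and 0 of complexes II and V, beside 4.15% of all genes. Differences between these comparisons were not tested for the lists.

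The clones show how the members stood after single-clone isolation with each construct. In Δ-C60 clones versus the libraries labelled WT clones, 4 of 43 members were called, all of them subunits and lower. This is 9.3% of members, near the 8.38% of all 13223 genes tested (3.24% lower and 5.14% higher). At an unadjusted p under 0.05 there were 7 members lower and 1 higher, beside 27.1% of all genes. Ndufa5, an accessory subunit of the Q module, had 33.2, 34 and 33 CPM in Δ-C60 and 60, 58 and 57.2 in WT, groups far apart. Its log2 fold change was −0.81 (SE 0.12, adjusted p = 0.00613), and it was called without each of the 6 libraries in turn. With WT replicate 2, the clone with high Nelfb, as the one WT library, it was −0.82. Almost no gene of any kind was called in that fit, so its calls are not read.

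Ndufa9, near the junction of the arms, had 76, 53.7 and 75.6 CPM in Δ-C60 and 101, 93.1 and 104 in WT (log2 fold change −0.53, SE 0.15, adjusted p = 0.0447). Ndufb7, in the distal membrane arm, had 75, 48.7 and 71.4 against 97, 132 and 108 CPM (−0.79, SE 0.23, adjusted p = 0.0484). Ndufb2, also of the membrane arm, had 16.3, 12.1 and 19.5 against 26.6, 22.6 and 29.8 CPM (−0.72, SE 0.21, adjusted p = 0.0495). The groups did not overlap for these genes, as for 11 members lower and 1 higher of 43 and 27.9% of all genes. Without WT replicate 1, 2 or 3 only Ndufa5 was called, the other 3 having adjusted p-values of 0.0635 to 0.147, and without Δ-C60 replicates 1, 2 or 3 the counts were 4, 2 and 3. The shares of all genes called in these 6 fits were 0.742%, 2.69% and 1.05% without a WT clone and 8.65%, 13.3% and 5.95% without a Δ-C60 clone. With WT replicate 2 alone the changes of Ndufa9, Ndufb7 and Ndufb2 were −0.47, −1.05 and −0.53. In that fit the lone WT library is assumed to vary like the other clone groups, so a lost call there is not a measure of a smaller change. Without the filter on low counts 1 member was called (4% of all genes), with the 6 libraries alone 0 (0.627%), and by DESeq2 6 (15.6%).

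**Figure D5:**
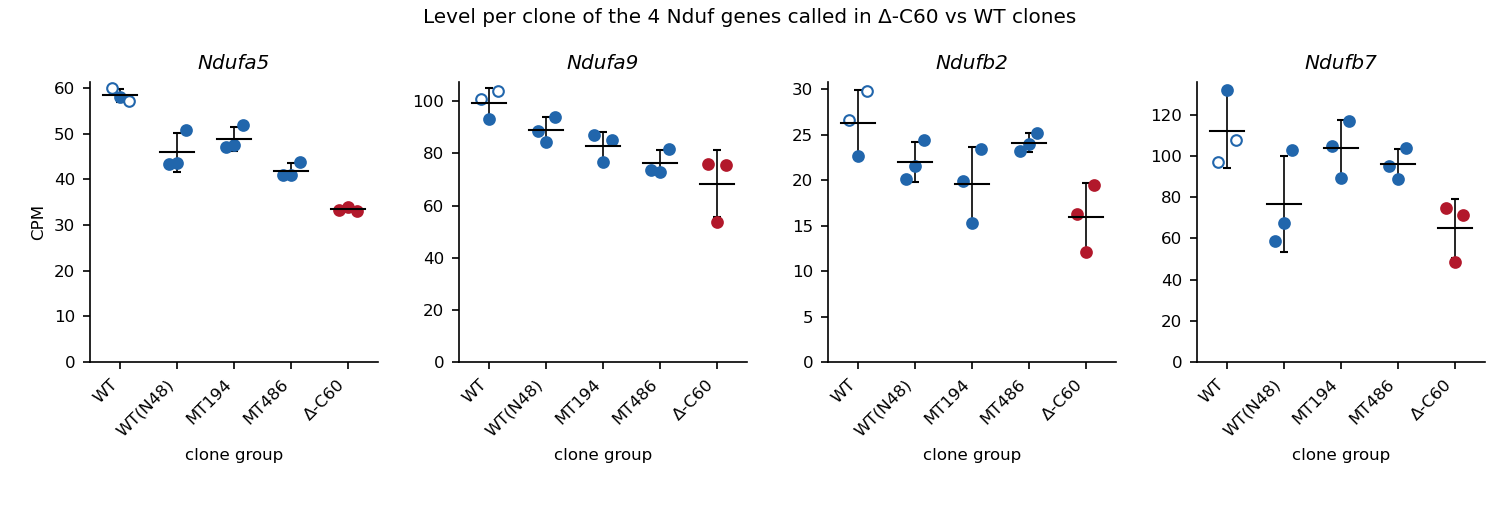
CPM of the 4 Nduf genes called in Δ-C60 versus WT clones, in each of 15 clones, with the mean (line) and SD (bar) of 3 clones per group. Open points are the libraries labelled WT replicates 1 and 3, in which Nelfb was low, and Δ-C60 is in red. Ndufa5 lies at 33 to 34 CPM in Δ-C60 and at 40.9 to 60 CPM in the other groups.

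Δ-C60 and WT clones also differ in vector (pBabe and pLenti), and construct and vector cannot be told apart in this comparison. Against WT(N48), which shares the pBabe vector, edgeR called 0 members in Δ-C60, beside 0% of all genes, with 4 members lower at an unadjusted p under 0.05 (11.6% of all genes) and 1 by DESeq2. Ndufa5 there was −0.46 (SE 0.12, adjusted p = 0.22) against 43.3, 43.5 and 50.8 CPM in WT(N48), again without overlap. Ndufb11 had 34.9, 73.6 and 51.1 CPM in the Δ-C60 clones and 51.9, 64.4 and 85.6 in WT(N48), a wider spread than in the populations.

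In the other clone groups 0 members were called against the libraries labelled WT. The shares of all genes called were 2.91% for MT194, 0% for MT486 and 2.1% for WT(N48). Unadjusted p-values under 0.05 were found for 6, 4 and 3 members, beside 21.1%, 8.89% and 21% of all genes, and DESeq2 called 1 member in each, beside 9.22%, 1.19% and 9.08% of all genes. With WT replicate 2 as the one WT library almost no gene of any kind was called in these 3 comparisons. Nothing is read from the lack of called members there. Ndufa5 had 40.9, 41 and 43.8 CPM in MT486 clones (log2 fold change −0.48, adjusted p = 0.262, and −0.47 with WT replicate 2 alone), the lowest mean after Δ-C60. Ndufaf3, the partner of Ndufaf4, had 12.2, 13.7 and 14.1 CPM in MT194 clones against 6.18, 7.34 and 5.28 in WT (1.08, SE 0.35, adjusted p = 0.103, and 0.84 with WT replicate 2 alone), and it was named after its values were seen. Summed subunit levels were 2083 ± 175.4 CPM in Δ-C60 and 2387 ± 208.2 in WT(N48), beside 2260 ± 131.4 in MT486, 2397 ± 141.5 in WT and 2530 ± 312.3 in MT194 (SD, n = 3). The clone sums lay above every population library, whose highest was 1960 CPM in DMT-GFP, except that of Δ-C60 replicate 3 at 1881 CPM. Populations and clones were scaled and fitted separately, and their difference was not tested.

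Several members share exon sequence with a gene on the other strand. Of the exon bases, 30% overlapped Tssk6 in Ndufa13, 12.9% Rbm10 in Ndufb11, 11.5% Tmco6 in Ndufa2 and 6.16% in Ndufs1. The libraries were stranded by the labels, but the strand setting of the count is not given in the sources used here, so that reads of such partners cannot be told apart with certainty. Ndufb9, Ndufb8, Ndufa4, Ndufaf4, Ndufa5, Ndufa9 and Ndufb7 had no overlapping gene among the symbols counted.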

How the data were processed

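Poly(A) RNA libraries (TruSeq stranded mRNA) were aligned by the authors to mm10 with Bowtie2, filtered with SAMtools at a mapping quality of at least 30, and counted per gene with HTSeq; DESeq2 is also named in the submitters' processing notes. The versions of these tools are not given in the sources used here. The deposited values are raw counts per gene symbol, 1 file per library. Rows that name no gene were left out of library sizes and tests, and reads on no gene were 11.72% to 21.27% in populations and 9.143% to 11.96% in clones.

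Here the 20 populations and the 15 clones were fitted separately in R 4.3.3 with edgeR 4.0.16 (limma 3.58.1): filterByExpr with a minimum count of 10, TMM scaling, 1 mean per group, and the robust quasi-likelihood test. P-values were adjusted by the Benjamini-Hochberg method over all genes tested, with calls made at adjusted p-values under 0.05. The standard error (SE) is the absolute log2 fold change divided by the square root of F. Differences between Cre effects were tested as contrasts of the same fit. Within-experiment differences are of log2(CPM + 0.5). Alternatives were an added fold limit of 0.5 (log2), DESeq2 1.42.0, its size factors in edgeR, no filter, the replicate block, the groups compared alone, each replicate left out, and WT clone 2 as the one WT clone library. On simulated data edgeR recovered most of the changed genes, and DESeq2 made a larger share of false calls than edgeR. The simulated libraries had no replicate effect, and their changes were larger than those called in Nduf genes. How the tests do on smaller changes or with a replicate effect was not tested.

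The study describes the population RNA-seq as 2 independent experiments, and the labels give replicate numbers alone. Taking these numbers to mark the experiments rests on correlations. Deviations from the group means correlated over 0.1 in 45 of 45 pairs of same-numbered libraries (0.42 to 0.73, median 0.586). Nothing in the labels says that clones with the same number share a source. With 2 or 3 libraries per group from 1 cell line, p-values measure the spread between these libraries.

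The members and gene lists were chosen with earlier results of these data known. Named with values were the core subunits, Ndufa4 and Ndufa4l2, every member called in EV-Cre versus EV-GFP, the 3 largest and 3 smallest log2 fold changes there, up to 3 called members of each other comparison, members under the filter, and up to 3 called genes of each other list. Positions and exon lengths are from GENCODE M21 (GRCm38), which matched 45 of 45 symbols, and promoters from RefSeq (GRCm38.p6). No sequence is printed for Ndufa2. The values of 1 member are not reported here, though it is in the counts, medians and sums.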

Additional observations from a re-analysis of the deposited data

Results flagged for a closer look

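The Cre effect on Ndufb11 differed between WT and EV cells by 0.98 on the log2 scale (SE 0.18, adjusted p = 0.0299, edgeR's interaction test with 2 libraries per group). The change was −0.99 in EV, where both Cre libraries were below both GFP libraries, and −0.00 in WT, where the groups overlapped. The value lay between 0.91 and 1.06 without each of the 8 libraries in turn. The call was lost without each of them (adjusted p 0.0757 to 0.174), without the filter on low counts (0.0843) and with the 8 libraries of these groups alone (0.127).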

How the results depend on the processing

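Counts are of called members, out of 43. With the replicate block 24 members were called in EV-Cre versus EV-GFP, 11 in MT194, 6 in MT486 and 18 in DMT, 26, 15 and 11 in WT-Cre, MT194-Cre and MT486-Cre versus EV-Cre, and 12, 1 and 4 for the Cre effect in WT, MT194 and MT486 against EV; the block moved no other population count. With the groups compared alone, 0 members were called in EV, 0 in DMT and 1 in WT-Cre versus EV-Cre. In such fits 0 were called for the Cre effect in WT against EV (0.0742% of all genes). Against WT clones, 1 was called in MT194 (4.28% of all genes) and 0 in Δ-C60 (0.627%). Without the filter on low counts 2 were called in DMT (5.7% of all genes) and 0 for the Cre effect in WT against EV (0.268%). In Δ-C60 versus WT clones 1 was called without it (4%). With the fold limit of 0.5 there were 5 in DMT. No share of all genes stands beside that count, so nothing is read from it. DESeq2 called 13, 2 and 3 in WT-Cre, MT194-Cre and MT486-Cre versus EV-Cre (13.8%, 2.19% and 3.74% of all genes), 3 and 1 for the Cre effect in WT and MT486 against EV (3.3% and 0.34%), and 1 each in MT194, MT486 and WT(N48) versus WT clones and in Δ-C60 versus WT(N48) clones (9.22%, 1.19%, 9.08% and 1.77%). With WT clone 2 as the one WT library no member was called in Δ-C60, in a fit that called almost no gene at all. The causes were not tested, except that fewer libraries enter the fits of the groups alone and of WT clone 2.

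Leaving out 1 library gave 3 to 7 calls in EV, 1 to 3 in DMT and 1 to 4 in WT-Cre versus EV-Cre. For the Cre effect in WT against EV it gave 0 to 0. It gave 0 to 1 in WT(N48) versus WT clones (1 without WT(N48) replicate 3, beside 4.5% of all genes). In Δ-C60 versus WT clones it gave 1 to 4. No called member reversed its direction under these settings in the comparison that called it, and members that were not called were not followed. Clone numbers correlated over 0.1 in 3 of 30 pairs (−0.285 to 0.408, median −0.0146), so that the clones share only a number. A replicate block there gave 3 calls in Δ-C60 versus WT clones, beside 5.43% of all genes. With 2 libraries per population group, small differences were often not called without the replicate block. Ndufs5, Ndufa4l2, Ndufab1 and Ndufb4 were limited by few reads.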
